A study of Homo sapiens with 8 samples.

Results

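The OAS family, read here as the genes OAS1, OAS2, OAS3 and OASL, was followed in RD18 cells, a human cell line of fusion-negative rhabdomyosarcoma, a tumour of the skeletal muscle lineage. The members were taken by symbol, and all 4 were found among the 22808 symbols of the count table and passed the filter on low counts that left 12366 genes to test. The cells received miR-449a and miR-340-5p in 4 libraries, or the transfection reagent lipofectamine alone (vehicle) in 4 libraries, and RNA was taken 60 h later in both groups. The cells are a single line, and nothing in the labels states whether the replicates were separate cultures; the p-values therefore measure only the spread between these libraries, which may be technical. The design text names no RNA in the vehicle, so the microRNA pair and the presence of transfected RNA cannot be told apart in this comparison.

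Oligoadenylate synthetases are enzymes of innate immunity that bind double-stranded RNA and join ATP into chains of adenylate with a 2′-5′ linkage. These chains activate a latent ribonuclease that cuts viral and cellular RNA. OAS1, OAS2 and OAS3 are catalytic and are built from copies of one nucleotidyltransferase unit, a single copy in OAS1, a pair in OAS2 and a triplet in OAS3. OASL, the OAS-like protein, carries one such unit without synthetase activity, followed by ubiquitin-like repeats, and is known to enhance signalling by the RNA sensor RIG-I. All are textbook interferon-stimulated genes, switched on by the transcription factor complex ISGF3 at the interferon-stimulated response element of their promoters.

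In GENCODE 29 on GRCh38, 3 of the genes stand side by side on the plus strand of chromosome 12. OAS1 (ENSG00000089127) runs from 112906777 to 112933222, OAS3 (ENSG00000111331) from 112938352 to 112973249 and OAS2 (ENSG00000111335) from 112978395 to 113011723, with gaps of 5.13 kb and 5.14 kb between them. OASL (ENSG00000135114) lies 8.01 Mb further along, from 121019111 to 121039242 on the minus strand. The longest annotated coding sequences were 1242 bases for OAS1, 2178 for OAS2, 3261 for OAS3 and 1542 for OASL, so the 3 synthetases rank in length as their unit number does. An antisense gene, AC004551.1, spans the cluster from 112907628 to 113017751 on the minus strand. Of the 4947 exon bases of OAS1 it shares 92, and it shares 0 exon bases with OAS2 or OAS3. How the counting treated strand is not stated in the sources at hand, and reads over those 92 bases may belong to either gene.

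The 2 transfected microRNAs are shown first, because their seeds define the sites searched for in the members. RefSeq gives these mature sequences (GRCh38.p14, minus strand of chromosome 5), with the seed, bases 2 to 8, in capitals.
hsa-miR-449a: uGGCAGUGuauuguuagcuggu
hsa-miR-340-5p: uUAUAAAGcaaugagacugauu
The seeds differ, and a target that pairs with the whole seed holds the 7-base word CACTGCC (miR-449a) or CTTTATA (miR-340-5p). In the longest annotated 3′ UTR of each member, read on the transcript strand, OAS1 (1300 bases) and OASL (1450 bases) held neither word. OAS2 (2463 bases) held 1 word of miR-340-5p, and OAS3 (3276 bases) held 1 word of miR-449a. Among the 10548 tested genes with a 3′ UTR of at least 50 bases, 19.9% held CACTGCC and 20.2% held CTTTATA. The 2 sites are printed with their surroundings, the word in capitals, at chr12:113011691-113011697 for OAS2 and chr12:112971276-112971282 for OAS3, both on the plus strand.
OAS2, miR-340-5p word: ttcatttgtattCTTTATAataaaatggtg
OAS3, miR-449a word: tacccctgccatCACTGCCccacatggaca
A match is a description of the letters and not evidence that the microRNA binds there. The OAS2 word begins 2436 bases after the stop codon and the OAS3 word 1303 bases after it. With the shorter 6-base words ACTGCC and TTTATA, which 39.5% and 56.5% of these genes hold, OAS1, OAS2 and OAS3 had a match and OASL had none.

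Promoters of members in the RefSeq table (GRCh38.p14, 250 bases before to 50 after the start) are shown as a description of their letters. Whether the words found there bear on the OAS values was not tested. Entries for OAS1 and OAS3 were matched; OAS2 and OASL are not shown. The words searched on both strands were GAAANNGAA and AANNGAAAC, which overlap each other and cover parts of the interferon-stimulated response element. Matches are in capitals. The OAS1 window is chr12:112906712-112907011 and the OAS3 window is chr12:112938224-112938523, both on the plus strand.
OAS1: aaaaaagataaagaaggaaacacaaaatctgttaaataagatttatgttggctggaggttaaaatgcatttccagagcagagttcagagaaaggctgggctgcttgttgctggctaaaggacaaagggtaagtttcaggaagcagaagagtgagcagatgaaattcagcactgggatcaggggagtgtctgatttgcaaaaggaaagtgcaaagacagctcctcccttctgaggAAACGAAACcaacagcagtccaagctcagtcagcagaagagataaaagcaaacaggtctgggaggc
OAS3: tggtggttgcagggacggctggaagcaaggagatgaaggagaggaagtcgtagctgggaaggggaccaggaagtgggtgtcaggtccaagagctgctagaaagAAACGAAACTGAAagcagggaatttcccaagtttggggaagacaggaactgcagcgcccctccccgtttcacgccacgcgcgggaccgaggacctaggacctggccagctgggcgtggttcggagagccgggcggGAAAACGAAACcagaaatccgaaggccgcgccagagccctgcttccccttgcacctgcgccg
The same 9 letters, AAACGAAAC, occur in both genes just before the start, beginning at position -16 in OAS1 and -10 in OAS3, counted from the RefSeq start. OAS3 has a further copy at -147, and its GAAANNGAA matches, at -143 and -12, overlap the 2 copies. The word AANNGAAAC was found in 4.06% of the promoters of tested genes and GAAANNGAA in 6.45%. OAS1 matched the first word and OAS3 both, so the number of member promoters with a match was 1 of 2 or 2 of 2 by the word used. Among other interferon-stimulated effectors, 21 of 28 genes with a promoter in the table held GAAANNGAA, and 21 of 28 held AANNGAAAC. Among interferon signalling genes the matches were 0 of 11 and 1 of 11 for the same words, and among nucleic acid sensors and related factors 3 of 11 and 2 of 11.

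Library totals ran from 2842165 to 5569342 counts in the microRNA-treated group and from 2567737 to 4650213 counts in the vehicle group. Members had 36 to 788 reads per library in treated cells and 7 to 87 in vehicle cells, so the vehicle values carry most of the counting error. Levels are given as CPM, counts per 1000000 reads after TMM scaling for library composition, and tests are edgeR quasi-likelihood tests with Benjamini-Hochberg adjustment over all 12366 tested genes. Muscle lineage markers summed over 7 genes to 935 to 966 CPM in treated libraries and 1476 to 1554 CPM in vehicle libraries. Of these, 7 of 7 were called lower, beside 34.0% of all tested genes. CHRNA1 made up the largest part, with a mean of 624 CPM in treated and 814 CPM in vehicle libraries. MYOG was nearly absent from treated cells, with 13 reads in treated and 155 in vehicle libraries. Leukocyte markers PTPRC, CD3E, ITGAM, LYZ and CD68 summed to at most 2.73 CPM in treated and 3.01 CPM in vehicle libraries. Endothelial markers PECAM1, VWF and TEK summed to at most 1.61 CPM in treated and 3.37 CPM in vehicle libraries. For plasmacytoid dendritic cells, a main source of interferon, CLEC4C and LILRA4 were not analysed here, IL3RA and IRF8 were under the count minimum, and TCF4, which other cells also express, was lower in treated cells. Epithelial markers summed to 71.9 to 83.3 CPM in treated libraries and 38.6 to 49.7 CPM in vehicle libraries, with KRT8, KRT18 and CLDN4 called higher; fibroblast markers summed to 197 to 221 CPM in treated and 144 to 150 CPM in vehicle libraries, with COL1A1 higher and LUM lower. The part of these marker shifts in the OAS values was not tested, and in bulk RNA more transcript per cell cannot be told apart from more cells with the transcript.

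All 4 members rose in the cells that received the microRNA pair, by 30.4-fold for OAS1, 16.2-fold for OAS2, 5.75-fold for OAS3 and 5.40-fold for OASL. For comparison, 33.4% of all tested genes were called higher at adjusted p under 0.05, 34.0% lower and 67.3% in either direction. In each of the 4 genes the lowest treated library lay above the highest vehicle library, a pattern found with treated higher in 29.2% of tested genes and in either direction in 58.9%. Ordered by log2 fold change among the 12366 tested genes, OAS1 ranked 22, OAS2 45, OAS3 231 and OASL 259 from the top. Summed over the 4 genes, the libraries held 402, 364, 353 and 338 CPM in treated cells and 29.7, 38.6, 33.7 and 32.4 CPM in vehicle cells. The means were 364 ± 27.1 and 33.6 ± 3.72 CPM in the same order (SD, n = 4 each), a ratio of 10.8.

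**Figure D1:**
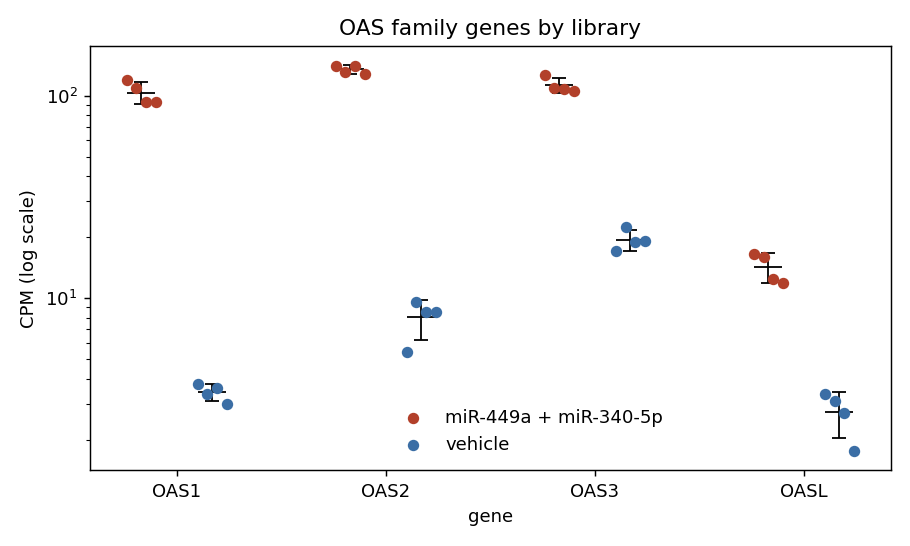
CPM of OAS1, OAS2, OAS3 and OASL in each library on a log axis, microRNA-treated libraries in red to the left and vehicle libraries in blue to the right, with bars for the mean and SD of 4 libraries. The groups are apart in every gene, and as a ratio the gap is widest in OAS1 (at least 93.0 CPM in treated, at most 3.77 CPM in vehicle libraries).

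OAS1, the single-unit synthetase, had 669, 637, 270 and 290 reads in the 4 treated libraries and 9, 13, 16 and 12 in the 4 vehicle libraries. Scaled for depth, this was 119, 109, 93.0 and 93.3 CPM in treated and 3.77, 3.37, 3.59 and 3.01 CPM in vehicle libraries. Treated replicates 1 and 2, which are also the deepest libraries of the group, were above replicates 3 and 4, while the vehicle libraries lay close together. The log2 fold change was 4.93 (SE 0.15, adjusted p = 3.89e-36), the largest of the family.

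OAS2, whose protein holds a pair of units, had 788, 763, 408 and 396 reads in treated libraries and 13, 37, 38 and 34 in vehicle libraries. The levels were 140, 130, 140 and 127 CPM in treated and 5.44, 9.58, 8.53 and 8.54 CPM in vehicle libraries. The treated libraries were nearly level, with a coefficient of variation of 4.95%, while vehicle replicate 1, the shallowest of its group, was the lowest of the 8. The log2 fold change was 4.02 (SE 0.12, adjusted p = 9.41e-37).

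OAS3, the triple-unit synthetase, had 713, 639, 312 and 328 reads in treated libraries and 41, 87, 84 and 76 in vehicle libraries, where it had the most reads of the family. Its levels were 127, 109, 107 and 106 CPM in treated and 17.2, 22.5, 18.9 and 19.1 CPM in vehicle libraries. Treated replicate 1 stood above the other 3 treated libraries, which lay within a few CPM of each other. The log2 fold change was 2.52 (SE 0.11, adjusted p = 1.90e-29).

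OASL, the member without synthetase activity, had the fewest reads of the family, with 93, 94, 36 and 37 reads in treated libraries and 8, 12, 12 and 7 in vehicle libraries. The levels were 16.5, 16.03, 12.4 and 11.9 CPM in treated and 3.35, 3.11, 2.69 and 1.76 CPM in vehicle libraries. As for OAS1, treated replicates 1 and 2 were above replicates 3 and 4, and vehicle replicate 4 was the lowest. The log2 fold change was 2.43 (SE 0.26, adjusted p = 2.08e-12), with the widest error of the 4 genes.

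Levels were compared between genes only per length, as RPKM (CPM per kilobase of annotated exons). In treated cells OAS2 averaged 21.5 ± 1.06, OAS1 20.9 ± 2.54, OAS3 13.6 ± 1.18 and OASL 4.04 ± 0.68 RPKM (SD, n = 4). OAS2 and OAS1 overlapped, OAS2 being the higher in 2 of 4 libraries, while OAS1 and OAS3, and OAS3 and OASL, did not overlap. In vehicle cells the order was OAS3 with 2.35 ± 0.27, OAS2 with 1.28 ± 0.29, OASL with 0.775 ± 0.20 and OAS1 with 0.694 ± 0.066 RPKM. There OAS3 was apart from OAS2, while OAS2 and OASL overlapped, as did OASL and OAS1. The length matters for OAS1, whose annotated exons add up to 4947 bases while its longest transcript has 2416. With the longest transcript of each gene as length, the treated order was OAS1 (42.8 ± 5.20), OAS2 (28.4 ± 1.41), OAS3 (16.7 ± 1.45) and OASL (4.35 ± 0.73), and the vehicle order was OAS3 (2.89 ± 0.34), OAS2 (1.69 ± 0.38), OAS1 (1.42 ± 0.13) and OASL (0.835 ± 0.21). Under both lengths OAS3 was highest in vehicle cells and OASL lowest in treated cells.

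The make-up of the family changed along with its size. OAS1 took 28.3 ± 1.68% of the family's reads in treated libraries and 10.3 ± 1.76% in vehicle libraries (SD, n = 4 each), and OAS2 took 37.0 ± 2.19% in treated and 23.7 ± 3.65% in vehicle libraries. OAS3 took 30.8 ± 0.71% in treated and 57.8 ± 1.27% in vehicle libraries, and OASL 3.89 ± 0.45% in treated and 8.19 ± 2.39% in vehicle libraries. The reads of treated cells were thus spread over the 3 synthetases, while OAS3 alone held 56.0% to 58.9% in the vehicle libraries. Per length the shares were 34.8% for OAS1, 35.9% for OAS2, 22.6% for OAS3 and 6.71% for OASL in treated libraries, and 13.7%, 24.97%, 46.1% and 15.2% for the same genes in vehicle libraries. These shares used all annotated exons as length and depend on that choice. With the longest transcript as length, OAS1 (42.8 RPKM) stood above OAS2 (28.4 RPKM) in treated cells.

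**Figure D2:**
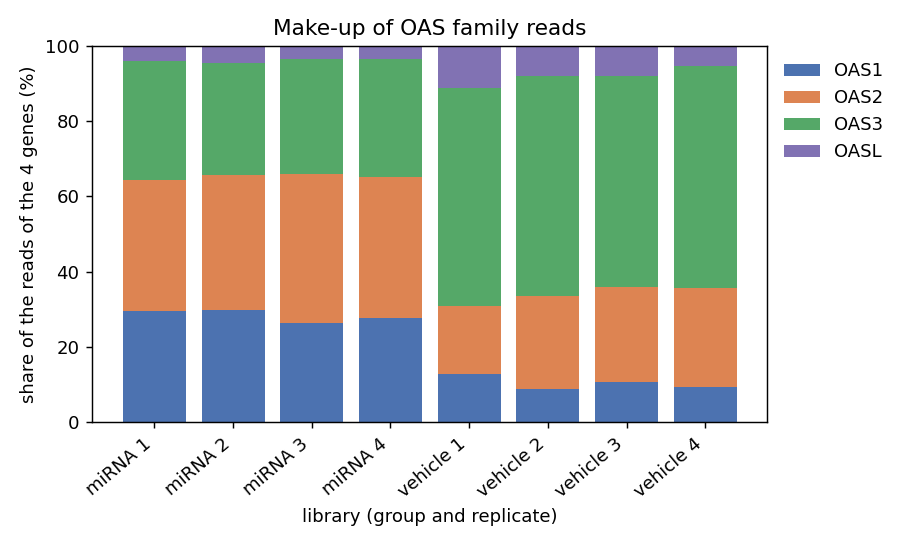
Share of the reads of the 4 genes, in percent of their sum, taken by OAS1, OAS2, OAS3 and OASL in each library, treated libraries to the left and vehicle libraries to the right. OAS3 takes 29.96% to 31.5% in treated libraries and 56.0% to 58.9% in vehicle libraries.

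Ratios between 2 members within a library do not depend on how libraries are scaled, and the 6 pairs were tested by an exact two-sided permutation test of 4 against 4 libraries. With 70 possible splits the smallest p is 0.0286, and the Benjamini-Hochberg adjustment over the 6 pairs raised it to 0.0429 for the pairs that reached it. OAS1 gained on OAS3 by 2.33 log2 units (SE 0.14), with a mean log2 ratio of -0.12 ± 0.092 in treated and -2.45 ± 0.26 in vehicle libraries (SD, n = 4 each, permutation adjusted p = 0.0429). It gained on OASL by 2.51 (SE 0.15). OAS2 gained on OAS3 by 1.55 (SE 0.12) and on OASL by 1.73 (SE 0.34). These 4 pairs did not overlap between the groups, and each had permutation adjusted p = 0.0429. For comparison, 58.9% of single tested genes did not overlap between the groups in either direction. The share among other pairs of genes was not computed. The 6 pairs are built from the same 4 genes and are not separate results.

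The other 2 pairs did not pass. The log2 ratio of OAS1 to OAS2 averaged -0.38 ± 0.17 in treated and -1.17 ± 0.46 in vehicle libraries, a difference of 0.78 (SE 0.24, permutation adjusted p = 0.0686), and vehicle replicate 1, with 9 and 13 reads of the 2 genes, lay among the treated libraries. That of OAS3 to OASL was 2.98 ± 0.17 in treated and 2.80 ± 0.43 in vehicle libraries, a difference of 0.18 (SE 0.23, permutation adjusted p = 0.514). The vehicle ratios of OAS3 to OASL ran from 2.29 to 3.35, wide enough to enclose the treated range of 2.76 to 3.13. The pairs that passed all set OAS1 or OAS2 against OAS3 or OASL, and a test that fails does not show that 2 genes responded alike.

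**Figure D3:**
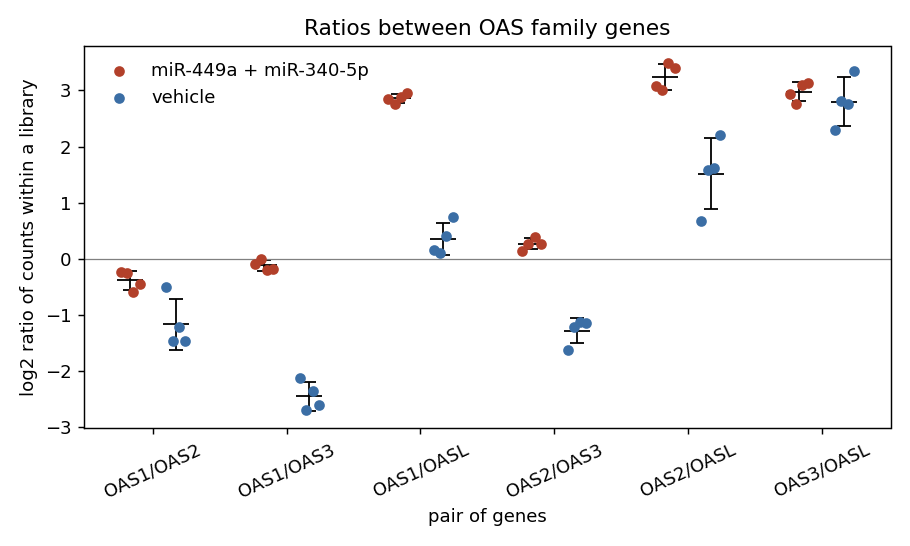
Log2 ratio of read counts (pseudocount 0.5) for the 6 pairs of family genes in each library, treated in red to the left and vehicle in blue to the right, with mean and SD of 4 libraries. The 2 groups are apart for the 4 pairs that set OAS1 or OAS2 against OAS3 or OASL, and overlap for OAS1/OAS2 and OAS3/OASL.

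Listed genes of interferon signalling were mostly higher as well. Whether they bear on the OAS values was not tested. Of 16 tested genes of interferon signalling (receptors, kinases, STATs and IRFs), 13 rose, 1 fell and 2 did not pass, beside 33.4% of all tested genes called higher and 34.0% lower. The median log2 fold change was 1.08 against 0.00 over all tested genes (-0.00067 before rounding). STAT2, a subunit of ISGF3, ran from 89.2 to 112 CPM in treated and from 17.9 to 19.3 CPM in vehicle libraries, 5.54-fold higher. IRF9, the DNA-binding subunit of ISGF3, named here after its values were seen, had 10.9 ± 3.67 CPM in treated and 0.768 ± 0.29 CPM in vehicle cells (log2 fold change 3.73, SE 0.37, edgeR adjusted p = 2.15e-13). IRF1, an interferon-induced activator, rose 8.58-fold, and the receptor-bound kinase gene JAK1 2.28-fold. IFNAR1, a chain of the type I interferon receptor, and IFNGR1, a chain of the interferon-gamma receptor, did not pass, though IFNAR1 was called higher with scaling by library size alone (0.30, adjusted p = 0.0274). The gene that fell was IFNGR2, the other chain of the interferon-gamma receptor, with 17.6 ± 3.32 CPM in treated and 22.5 ± 3.92 CPM in vehicle cells (adjusted p = 0.0216). That call was lost with DESeq2 (adjusted p = 0.0675), with scaling by library size alone (0.140) and without vehicle replicate 3 (0.176) or treated replicate 1 (0.160).

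Of the interferon genes themselves, 1 of 10 listed had a row to use, and the others were not analysed here. IFNL1, a type III interferon, had 16, 11, 7 and 3 reads in the treated libraries and 0, 2, 0 and 0 in the vehicle libraries. The sums of 37 and 2 reads give a depth-corrected ratio of 15.5, with an exact 95% interval from 4.00 to 133 that covers counting error only. The gene did not reach the count minimum and was not tested. Each treated library had more IFNL1 reads than any vehicle library, the closest counts being 3 and 2 reads before scaling for depth. In CPM, 29.2% of tested genes had every treated library above every vehicle library.

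Among 16 tested genes of a list of nucleic acid sensors, adaptors and related factors, 10 rose, 4 fell and 2 did not pass (median log2 fold change 0.70). Over all tested genes 33.4% were called higher and 34.0% lower. The list is wider than sensors and their adaptors, and also held the partners of Dicer named below. IFI16, a DNA sensor, rose 9.94-fold, IFIH1, which encodes the RNA sensor MDA5, 10.8-fold, DHX58, which encodes LGP2, 6.82-fold, and EIF2AK2, the RNA-activated kinase PKR, 2.61-fold. The 4 that fell lie outside the rule for named genes and were picked after their values were seen. MB21D1, which encodes cGAS, a nucleotidyltransferase of the same fold as the OAS unit that senses DNA, had 8.03 ± 2.51 CPM in treated and 18.4 ± 2.39 CPM in vehicle cells (log2 fold change -1.17, SE 0.20, edgeR adjusted p = 5.60e-07). TMEM173, its adaptor STING, fell by 0.54 on the log2 scale (SE 0.15). TARBP2 and PRKRA, partners of Dicer that bind double-stranded RNA, fell by 0.76 and 0.60.

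Other interferon-stimulated effectors rose in 33 of 34 tested genes, with a median log2 fold change of 2.37. By comparison, 33.4% of all tested genes were called higher and 34.0% lower. IFI6 rose 27.1-fold, IFIT3, which binds viral RNA with its partners, 5.73-fold, and IFI27 85.2-fold. XAF1 had 1959 reads in the treated libraries and 6 in the vehicle libraries (110 ± 10.5 and 0.451 ± 0.34 CPM in the same order). The fold changes of OAS1 and OAS2 were above this list's median and those of OAS3 and OASL close to it. The gene that fell was IFITM2, which restricts virus entry (log2 fold change -0.24, SE 0.07, adjusted p = 0.00172), a call lost when libraries were scaled by size alone (-0.10, adjusted p = 0.228). These lists were chosen with earlier results of these data known and are no independent evidence of direction.

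**Figure D4:**
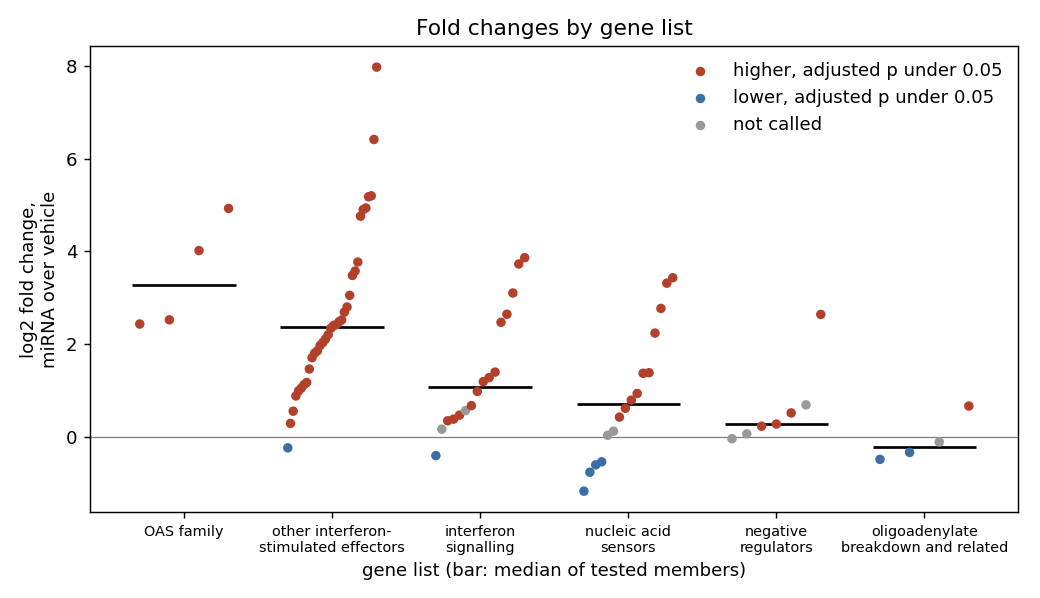
Log2 fold change, microRNA-treated over vehicle, of each tested gene in 6 lists, with points coloured by call and a bar for the list median. The OAS genes lie between 2.43 and 4.93, with list medians of 2.37 for other effectors and -0.22 for oligoadenylate breakdown and related regulators.

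Of 7 tested negative regulators of interferon signalling, 4 rose and 3 did not pass (median 0.28), beside 67.3% of all tested genes called in either direction. USP18, an interferon-induced brake on the type I receptor, had 37.4 ± 3.89 CPM in treated and 6.41 ± 3.73 CPM in vehicle cells, 6.23-fold higher. The phosphatase genes PTPN1 and PTPN11 rose 1.21-fold and 1.17-fold. SOCS3 rose 1.43-fold (adjusted p = 0.00857), a call lost without vehicle replicate 3 (0.0822) or treated replicate 2 (0.0637).

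A list of genes of oligoadenylate breakdown and related regulators held 5 genes. Of the 4 tested, 1 rose, 2 fell and 1 did not pass (median -0.22), counts near the shares over all tested genes (33.4% higher, 34.0% lower). The fifth, ENPP1, did not pass the filter on low counts and had 8 reads in treated and 53 in vehicle libraries. CNP, a 2′,3′-cyclic nucleotide phosphodiesterase of the same enzyme superfamily as AKAP7, had 114 ± 5.42 CPM in treated and 72.7 ± 5.47 CPM in vehicle cells, 1.58-fold higher. ABCE1, a ribosome recycling factor first described as an inhibitor of that ribonuclease, had 88.8 ± 3.29 CPM in treated and 124 ± 9.26 CPM in vehicle cells (log2 fold change -0.49, SE 0.08, adjusted p = 2.32e-07). PDE12, a phosphodiesterase that degrades 2′-5′ oligoadenylates, had 20.2 ± 2.67 CPM in treated and 25.3 ± 2.73 CPM in vehicle cells (log2 fold change -0.34, SE 0.15, adjusted p = 0.0374). The PDE12 call was lost with DESeq2 (0.0822), with library size alone (0.231), with upper-quartile scaling (0.0762), with no low-count filter (0.0753) and without vehicle replicate 3 (0.113), vehicle replicate 4 (0.0982) or treated replicate 2 (0.210). AKAP7, which has the same activity in mouse, had 8.14 ± 2.18 CPM in treated and 8.97 ± 2.03 CPM in vehicle cells and did not pass (adjusted p = 0.691).

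Genes beside the OAS loci did not share the size of their change. Left of the cluster, PTPN11 at 397 kb had a log2 fold change of 0.23, and RPL6, a ribosomal protein gene at 488 kb, fell by 0.70. On its right, the pseudogenes IMMP1LP2 and RPS15AP32 had at most 3 reads in a group. Beside OASL, the pseudogene RPL12P33 did not pass (edgeR adjusted p = 0.439). On the other side P2RX7 had 2 reads in treated and 0 in vehicle libraries, and P2RX4, an ATP-gated ion channel gene at 171 kb, had 12.8 ± 1.79 CPM in treated and 3.77 ± 1.39 CPM in vehicle cells, 3.40-fold higher (log2 fold change 1.76, SE 0.25, adjusted p = 9.93e-09). Neighbours were taken from symbols that matched GENCODE 29, which were 17610 of the 22808.

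The genes most like each member across the 8 libraries, by Pearson r of log2 CPM, included no other member. For OAS1 they were WARS (0.999), a tRNA synthetase gene, MYOF (0.999) and SH3BP5 (0.999). OAS2 was closest to POLR3GL (0.9996), APP (0.999) and TMEM87B (0.998), and OAS3 to TMEM87B (0.999), APP (0.999) and IFI6 (0.998). OASL was closest to LINC00545 (0.994), BCL10 (0.993) and NFKB2 (0.993), the last 2 being genes of NF-kB signalling. Between members r ran from 0.962 for OAS2 and OASL to 0.997 for OAS2 and OAS3. The 8 libraries include both groups, so these values take in the difference between treated and vehicle cells. APP, among the 3 most like OAS2 and OAS3, rose 2.08-fold.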

How the data were processed

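Polyadenylated RNA of RD18 cells was sequenced from stranded libraries, 4 per group. The authors deposited whole-number read counts per gene symbol, and the submitters' processing notes name, without roles, GRCh38, DESeq2, HTSeq 0.5.3p3, TopHat2 2.0.13 and SAMtools 0.1.19.24; annotation and strand handling: not given in the sources used here. Counts are per gene and do not separate isoforms. Columns were matched to samples through the library code in each description. Genes passing edgeR's filterByExpr (minimum count 10, minimum total 15; 12366 genes) received TMM factors and entered a quasi-likelihood fit in edgeR 4.0.16 under R 4.3.3 (glmQLFit, robust, glmQLFTest, group only, two-sided, Benjamini-Hochberg, threshold 0.05). SEs were derived from the log2 fold change and its F statistic. The fit was tested on simulated data with a common dispersion and far fewer changed genes than were called here. That test does not show how the scaling behaves under so broad a change. Replicate pairs differed by more than sampling noise (chi-square per gene 2.21 to 5.89, where noise gives about 1). Levels per length used exons of GENCODE 29; promoters and microRNAs came from RefSeq, GRCh38.p14. Ratios of members used a pseudocount of 0.5 counts.

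The members and lists were chosen with earlier results of these data known. Named genes are the members, the 4 genes of each list with the smallest adjusted p at a mean of at least 1 CPM, listed interferon genes, the 3 genes most like each member, and the 2 nearest genes on each side; a few of these genes are left unreported here. Alternatives were DESeq2 1.42.0, limma-voom (limma 3.58.1), other scalings and filters, a replicate block, removal of mitochondrially encoded genes, leaving out each library, other pseudocounts and words, and, added after the data were seen, the longest transcript as length.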

Additional observations from a re-analysis of the deposited data

Results flagged for a closer look

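Among the members and the other genes named, 8 of 82 sets of 4 libraries had 1 library standing apart from the other 3 by Dixon's 95% criterion. Chance gives about 1 in 20 for normally distributed values, which low counts are not. OAS3 had 127 CPM in treated replicate 1 and 106 to 109 CPM in the other treated libraries, all above the vehicle libraries. IRF1 had 58.9 CPM in 1 treated library and 67.1 to 68.5 CPM in the others. POLR3GL had 22.6 CPM in 1 vehicle library and 30.6 to 31.9 CPM in the others. IFIT3 had 90.4 CPM in 1 vehicle library and 81.4 to 82.6 CPM in the others. The rest were genes at the limit of detection: IFNL1 with 0.518 CPM in 1 vehicle library, P2RX7 with 0.355 CPM in 1 treated library, and IMMP1LP2 with 0.178 CPM in 1 treated and 0.449 CPM in 1 vehicle library, the other 3 libraries of each set being at 0. Such sets are flagged whatever the value of the library with reads, so they cannot be set against the rate of 1 in 20.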

How the results depend on the processing

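The 4 members were called higher under every alternative run. Without single libraries their log2 fold changes ran from 4.85 to 4.98 for OAS1, 3.91 to 4.09 for OAS2, 2.46 to 2.60 for OAS3 and 2.27 to 2.52 for OASL, and under the other settings from 4.89 to 5.06, 4.01 to 4.15, 2.50 to 2.66 and 2.38 to 2.57. With the replicate block OAS1 had 4.89, OAS2 4.02, OAS3 2.50 and OASL 2.38, and the block gave 4102 genes higher and 4171 lower against 4125 and 4199. Libraries with the same number deviated together only weakly (r from 0.013 to 0.056). Each treated library still correlated best with its own number, so the numbers may mark pairs. The reported fit and the ratio tests did not treat them as pairs. With library size as the only scaling the median of all genes shifted by 0.14 log2 units, the calls were 4890 higher and 3453 lower, and listed pathway genes called lower numbered 5 against 8. The 4 pair ratios that passed kept their side with pseudocounts of 2 and 0.1, and without single libraries the 6 differences kept their sign. With the longest transcript as length, RPKM moved to 42.8 in treated and 1.42 in vehicle cells for OAS1, 28.4 and 1.69 for OAS2 and 16.7 and 2.89 for OAS3 in the same order. Signs turned only for genes that had not passed: PTPN2 (0.10 with library size alone, 0.010 with upper-quartile scaling, -0.15 to 0.038 without single libraries), AKAP7 (0.025 with library size alone, -0.26 to 0.015), IKBKE (-0.093 to 0.37) and PIAS1 (-0.0078 to 0.11). IFNAR2 (adjusted p = 0.0367) was lost with DESeq2 (0.0518), limma-voom (0.0519) and without any of 5 libraries. Calls were gained by IFNAR1 (adjusted p = 0.0274 with library size alone) and SOCS1 (0.0405 with library size alone, 0.0339 without vehicle replicate 3, 0.0480 without treated replicate 3, against 0.0874 in the reported fit). Depth limits the vehicle values most: OAS1 and OASL had 7 to 16 reads per vehicle library.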
